A study of Mus musculus and Homo sapiens with 4 samples.

Results

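The genes described are 10 nucleic acid sensing genes of mouse embryonic fibroblasts (MEFs): Ddx58, Ifih1, Dhx58, Mavs, Tlr3, Tmem173, Zbp1, Eif2ak2, Adar and Tbk1. They were chosen by gene symbol, and each symbol stood on 1 of the 23329 entries of the MEF RNA sequencing files, so that all 10 were measured. The MEF RNA sequencing compared wild-type (WT) with NEAT1 knockout (KO) fibroblasts, with 1 poly-A library for each. Both cultures were C57BL/6 fibroblast lines derived from E13.5 embryos, grown for 2 to 3 passages in a DMEM and Ham F12 mixture with fetal calf serum, and no treatment is named for either. NEAT1 is a nuclear long non-coding RNA and the scaffold of the paraspeckle, a subnuclear body. How many embryos gave each line is not given in the sources used here. The other libraries of the series are human prostate cancer cells and are not described.

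The authors deposited RPKM values, that is read numbers divided by entry length and library size. A log2 ratio is the log2 of the KO value plus 1 over the WT value plus 1, and values past 1 or past -1 are counted. With 1 library per condition there is no spread between replicates, so no test was made, and neighbours in any order of levels could not be separated. The ranges of 95% given for KO to WT ratios cover counting error only and not the difference between cultures. The Neat1 entry had 29.5 RPKM in WT and 2.01 RPKM in KO, in the direction of the labels.

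Cells recognize foreign or misplaced nucleic acids through receptors that are set by compartment and by ligand. In the cytosol, RIG-I (Ddx58) and MDA5 (Ifih1) bind viral-type RNA and signal through the mitochondrial protein MAVS to the kinase TBK1, which phosphorylates IRF3 and so starts type I interferon transcription. LGP2 (Dhx58) is the third member of this helicase family and lacks the signalling domains of the others. TLR3 senses double-stranded RNA in endosomes, STING (Tmem173) relays the presence of cytosolic DNA to TBK1, ZBP1 binds nucleic acids in the left-handed Z form, PKR (Eif2ak2) stops translation when it binds double-stranded RNA, and ADAR1 (Adar) edits adenosine to inosine in such RNA. Several of these genes are themselves switched on by interferon through response elements to which STAT and IRF proteins bind.

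The sequences around the transcript starts are shown before the values, because some of these genes are known to be controlled by interferon response elements. RefSeq promoters of GRCm38.p6, each of 300 bases with 250 before and 50 after a transcript start, were at hand for 7 of the 10 genes, with 3 starts for Adar. Dhx58, Tmem173 and Zbp1 had no entry. The motif GAAANNGAAA (TTTCNNTTTC on the other strand), the repeated core of the interferon-stimulated response element, was searched on both strands. It was held by 3.44% of all 32851 promoters (1131 promoters). Of the 7 genes 3 held it, each within the first 50 bases after the start, and capitals mark the match in stretches of 30 bases written in the direction of transcription:
Ddx58, chr4:40239804-40239833, minus strand, match at positions 3 to 12 of the transcript: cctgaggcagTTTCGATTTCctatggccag
Ifih1, chr2:62646206-62646235, minus strand, match at positions 33 to 42: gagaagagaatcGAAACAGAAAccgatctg
Eif2ak2, chr17:78882535-78882564, minus strand, match at positions 19 to 28: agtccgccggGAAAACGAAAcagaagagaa

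The shorter pair GAAANNGAA (TTCNNTTTC on the other strand), which every longer match contains, was held by 8.56% of all promoters. It added Adar at 1 of its 3 starts, the one inside the gene at chr3:89730718. There it matched at positions 34 to 42, and again from -249 to -241:
Adar, chr3:89730738-89730767, plus strand: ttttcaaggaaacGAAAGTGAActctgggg

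Mavs, Tlr3 and Tbk1 held neither motif in their 300 bases. For Tlr3 the start used, at base 45410380, lies inside the measured entry, which begins at base 45410539 on the minus strand. Its 300 bases reach only to base 45410630, and sequence farther upstream of the entry was not searched. The absence of a match for Tlr3 therefore does not cover the full 250 bases before its entry. The first 30 transcribed bases of Mavs and Tbk1 are given for comparison with the stretches above:
Mavs, chr2:131234063-131234092, plus strand: cttcatctgcgagggctctgcacagtcgaa
Tbk1, chr10:121586765-121586794, minus strand: tcggtcacgtgctccgtggcccgggctggc

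The 250 bases before the start of a receptor and of its adaptor are shown because their RNAs differed in behaviour while both lie on chromosome 2 and neither stretch overlaps an annotated exon. The pair was picked with its RNA values known, and a link between these sequences and the RNA levels was not tested. Ifih1 held 11 CpG dinucleotides there and 50% GC, and Mavs held 15 and 65.2%. Capitals mark the match of the shorter pair upstream of Ifih1, from -112 to -104:
Ifih1, chr2:62646256-62646505, minus strand: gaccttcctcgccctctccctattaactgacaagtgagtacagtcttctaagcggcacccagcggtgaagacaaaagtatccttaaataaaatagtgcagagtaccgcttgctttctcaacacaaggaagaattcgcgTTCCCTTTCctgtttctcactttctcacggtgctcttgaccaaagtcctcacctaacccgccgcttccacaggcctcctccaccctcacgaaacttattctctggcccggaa
Mavs, chr2:131233813-131234062, plus strand: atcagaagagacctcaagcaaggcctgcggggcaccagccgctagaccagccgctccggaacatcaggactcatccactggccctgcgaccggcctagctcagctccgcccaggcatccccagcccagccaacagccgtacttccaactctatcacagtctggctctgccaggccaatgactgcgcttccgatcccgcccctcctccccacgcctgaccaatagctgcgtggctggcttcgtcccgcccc

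The GAS element TTCNNNGAA, a second type of interferon response element, was held by 8.30% of all promoters and, among the members, by Eif2ak2 (from -178 to -170) and by Adar at the same inner start (positions 23 to 31). Across the whole 300 bases GC content was 49% for Ifih1, 51% for Tlr3, 53.3% for Ddx58, 60.7% for Eif2ak2, 64% for Mavs and 69% for Tbk1. For Adar it was 50% at the outermost start, 70% at the next and 55.7% at the inner start. The median over all promoters was 52.7%. A match of letters describes the sequence and was not tied to binding of any factor here.

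In NEAT1 KO fibroblasts 6 of the 10 genes had a log2 ratio above 1 (Zbp1, Dhx58, Ifih1, Ddx58, Eif2ak2 and Adar), 2 of them above 2, and 0 below -1. Over all 23329 entries 0.977% lay above 1, 0.223% above 2 and 0.334% below -1. The 10 genes gave the same counts with a pseudocount of 0.1, after centring and after quantile normalization. The shares of all entries above 1, above 2 and below -1 were 2.14%, 0.506% and 2.31% with that pseudocount. They were 1.14%, 0.249% and 0.244% after centring, and 1.11%, 0.236% and 0.261% after quantile normalization. Keeping only entries that reach 1 RPKM in 1 library leaves every log2 ratio as it was. All 10 genes pass that filter, Zbp1, Dhx58 and Tlr3 through KO alone, so their counts there were fixed in advance. The shares among the entries kept were 1.99%, 0.454% and 0.68%. The median log2 ratio of the 10 genes was 1.08, and that of all entries was 0. The remaining 4 genes (Tlr3, Tmem173, Tbk1 and Mavs) lay between -0.20 and 0.38. Among these 10 genes, those above the limit were sensors and effectors that bind RNA or Z-form nucleic acids directly. The adaptors and the kinase on which the cytosolic receptors converge were within it, as was 1 receptor, Tlr3. The split describes the 10 genes only. In the pathway lists below, the downstream genes Irf7 and Nfkbia were above the limit, and the helicase gene Ddx3x was lower in KO.

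**Figure D1:**
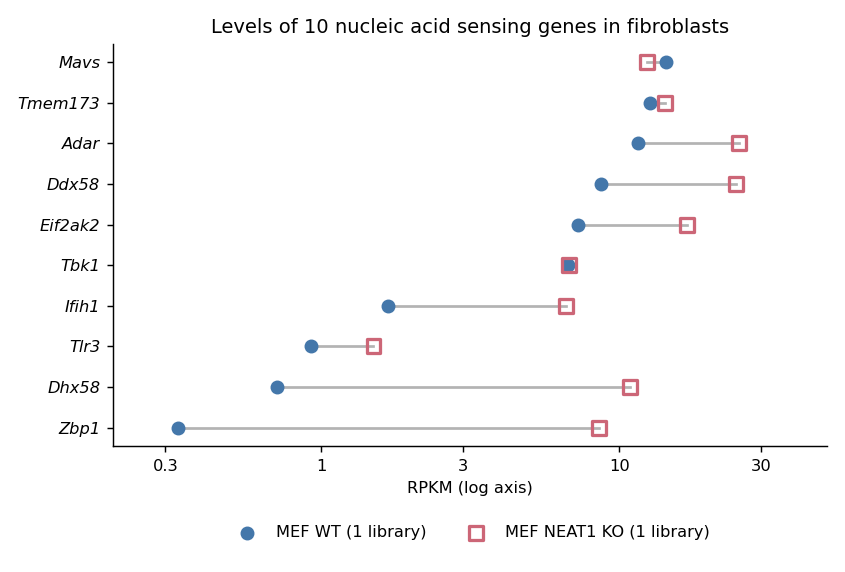
RPKM of each gene on a log axis, in MEF WT (filled circles) and MEF NEAT1 KO (open squares), 1 library each, ordered by the WT value. The WT values run from 0.331 for Zbp1 to 14.4 for Mavs, and the KO squares lie far to the right for Zbp1 and Dhx58 and on the circle for Tbk1.

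The RIG-I-like receptors were all higher in KO, and the one with the lowest level in WT had the largest ratio. Dhx58 (chr11:100694884-100704271), which modulates signalling by the other helicases, had 0.712 RPKM in WT and 10.9 RPKM in KO. The KO to WT ratio, without pseudocount, was 15.3 (95% counting range 11.6 to 20.5), on an estimated 53.9 read pairs in WT and 778 in KO. Its log2 ratio of 2.80 ranked 20 of all entries.

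Ifih1 (chr2:62595793-62646255), the MDA5 gene, had 1.67 RPKM in WT and 6.62 RPKM in KO, a ratio of 3.96 (3.48 to 4.53) and a log2 ratio of 1.51. Ddx58 (chr4:40203777-40239825), the RIG-I gene, had 8.72 RPKM in WT and 24.6 RPKM in KO, a ratio of 2.82 (2.63 to 3.03) and a log2 ratio of 1.40. Their order differed between the libraries: in WT the level of Ifih1 was 2.35 times that of Dhx58, while in KO that of Dhx58 was 1.64 times that of Ifih1. Ddx58 remained the most abundant of these receptors in both, at 5.21 times the Ifih1 level in WT and 3.71 times in KO. Summed over the 3 receptors, the level was 11.1 RPKM in WT and 42.1 RPKM in KO.

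Zbp1 (chr2:173206612-173218922) encodes a sensor of Z-form nucleic acids that couples to the necroptosis kinase RIPK3. It had the lowest level of the group in WT, 0.331 RPKM on an estimated 22.5 read pairs, and 8.56 RPKM on 549 read pairs in KO. The ratio of 25.9 (17.3 to 42.5) and the log2 ratio of 2.84 were the largest of the 10 genes, and the log2 ratio ranked 18 of all entries. Ripk3 itself had 41.5 RPKM in WT and 49.8 RPKM in KO, and Mlkl, the pore-forming executor of necroptosis, had 7.35 and 7.84 RPKM.

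The genes of the kinase PKR and the editing enzyme ADAR1 were above the limit by a small margin and by similar amounts. Eif2ak2 (chr17:78852550-78882572), the PKR gene, had 7.29 RPKM in WT and 16.9 RPKM in KO, a ratio of 2.31 (2.14 to 2.49) and a log2 ratio of 1.11. Adar (chr3:89715022-89753455) had 11.6 RPKM in WT and 25.2 RPKM in KO, a ratio of 2.17 (2.07 to 2.29) and a log2 ratio of 1.06. Adar was the most abundant of the 10 genes in KO and ranked 3 in WT. Its entry merges 3 RefSeq transcripts, and ADAR1 is made in a long form from an interferon-inducible promoter and in a shorter constitutive form, so the value does not say which form differed.

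The adaptors and the shared kinase differed little. Mavs (chr2:131234063-131248024), the mitochondrial adaptor of RIG-I and MDA5, had the highest level of the group in WT, 14.4 RPKM, and 12.4 RPKM in KO, a ratio of 0.860 (0.794 to 0.930) and a log2 ratio of -0.20. In WT its level was 1.65 times that of Ddx58, and in KO that of Ddx58 was 1.99 times that of Mavs. Tmem173 (chr18:35733678-35740554), the STING gene, had 12.7 RPKM in WT and 14.3 RPKM in KO, a ratio of 1.13 (1.03 to 1.23). Tbk1 (chr10:121546456-121586794) had 6.72 RPKM in WT and 6.80 RPKM in KO, a ratio of 1.01 (0.904 to 1.13), the only counting range of the 10 that includes 1.

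Tlr3 (chr8:45395665-45410539), the endosomal receptor for double-stranded RNA, had 0.926 RPKM in WT and 1.5 RPKM in KO. Its ratio was 1.62 (1.28 to 2.04) and its log2 ratio 0.38, the highest of the 4 genes within the limit. Its estimated 126 and 192 read pairs were the fewest of the group in KO. In WT Tlr3 and Dhx58 were neighbours in level, but in KO Tlr3 was the lowest of the 10 genes and Dhx58 ranked 6.

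In WT the order of levels was Mavs, Tmem173, Adar, Ddx58, Eif2ak2, Tbk1, Ifih1, Tlr3, Dhx58 and Zbp1. In KO it was Adar, Ddx58, Eif2ak2, Tmem173, Mavs, Dhx58, Zbp1, Tbk1, Ifih1 and Tlr3. The highest level was 43.4 times the lowest in WT and 16.8 times in KO. All 10 genes reached 1 RPKM in KO and 7 did so in WT.

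**Figure D2:**
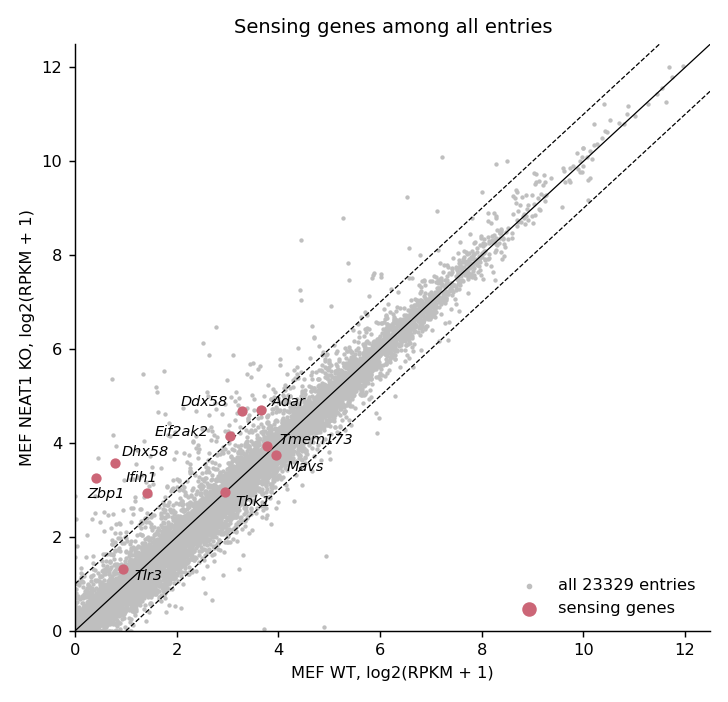
Each point is 1 of the 23329 entries, with log2(RPKM + 1) in MEF WT on the x axis and in MEF NEAT1 KO on the y axis. The solid line marks equal values and the dashed lines a log2 ratio of 1 and -1. Zbp1 and Dhx58 stand farthest above the dashed line among the 10 named genes, and Adar and Eif2ak2 lie close to it.

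Because ratios scatter more at low levels, each gene was also placed among entries of like mean level, those within 0.25 of it on the log2 scale over both libraries. Of the 998 such entries around Zbp1 1 had a log2 ratio at least as high, and of the 1109 around Dhx58 2 did. The share was 1.17% for Ddx58, 1.44% for Ifih1, 1.96% for Adar and 1.99% for Eif2ak2. It was 8.7% for Tlr3, 14.9% for Tmem173, 34.9% for Tbk1 and 77.4% for Mavs. The first 6 genes therefore lay outside the central 95% of entries of like level and the other 4 lay inside it, as a description of these libraries and not as a test.

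**Figure D3:**
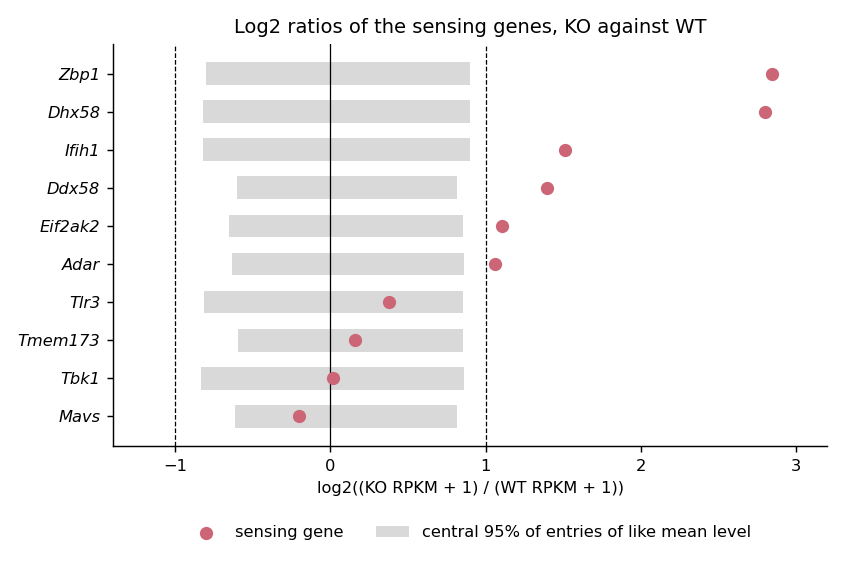
Log2 ratio of each gene (points), KO against WT, with grey bars for the central 95% of log2 ratios among entries of like mean level and dashed lines at 1 and -1. The 6 genes from Adar (1.06) to Zbp1 (2.84) lie to the right of their bars, and Tlr3, Tmem173, Tbk1 and Mavs lie inside them.

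The entry closest in pattern to each gene was taken from the distance between log2(RPKM + 1) values over the 2 libraries. For Zbp1 it was Oasl1 (0.310 RPKM in WT, 6.35 in KO) at a distance of 0.38, and for Dhx58 it was I830012O16Rik (0.363 and 11.8 RPKM) at 0.34. No entry lay within 0.25 of either. Between 6 and 10 entries lay that close to Ifih1, Ddx58, Eif2ak2 and Adar, the nearest being Tnfsf11, Ptges, Ass1 and Adora2b. Within 0.25 of Tlr3 lay 155 entries, of Tmem173 484, of Mavs 593 and of Tbk1 598.

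Around the sensors, 155 of 156 genes in 10 lists of the sensing and interferon pathways were measured. The gene Mb21d1 was not found by that symbol. Of the 155 genes 16 had a log2 ratio above 1 (10.3%) and 0 below -1, with a median of 0.015, beside the 0.977% of all entries above 1. The 16 genes belonged to 5 of the lists, and in the other 5 lists no gene was past the limit. With a pseudocount of 0.1, 20 of the pathway genes were above 1 and 1 was below -1.

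**Figure D4:**
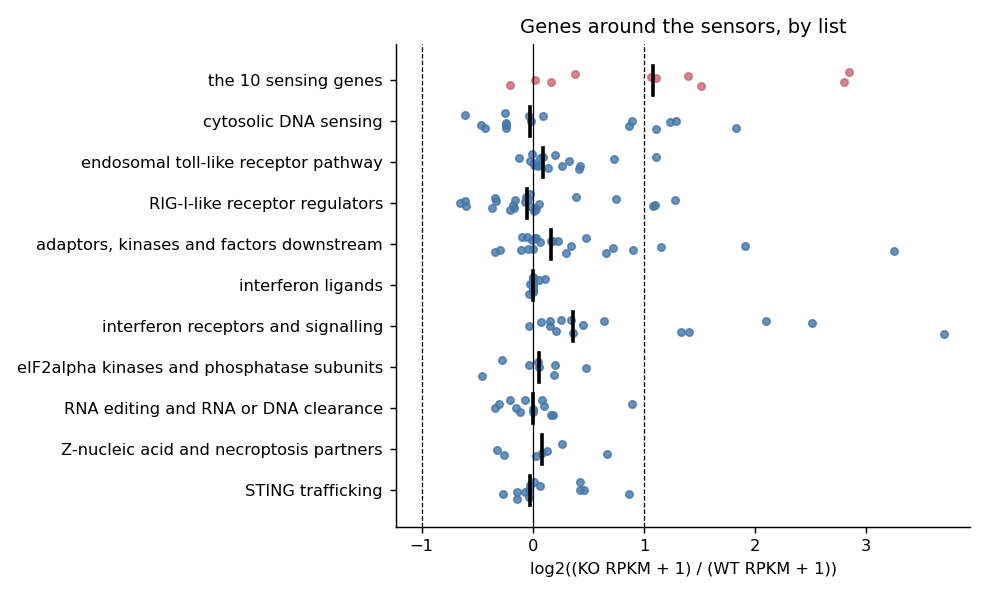
Log2 ratio of every measured gene, KO against WT, by list, with the 10 sensors in the top line, black bars at each median and dashed lines at 1 and -1. The median is 1.08 for the 10 sensors and 0.36 for interferon receptors and signalling, the highest of the other lists.

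Of 15 genes of interferon receptors and signalling 5 were above 1. The highest was Usp18, the protease that removes ISG15 and restrains the interferon receptor, with 5.85 RPKM in WT and 88.0 RPKM in KO. Of the transcription factors that act behind the receptor, Stat2 had 5.75 and 27.8 RPKM (log2 ratio 2.10), and Irf9 had 10.5 and 29.5 RPKM (1.40). Also above 1 was Socs3, a feedback inhibitor of JAK kinases, with 7.87 and 21.3 RPKM (1.33). The receptor genes Ifnar1 (15.2 and 18.4 RPKM) and Ifnar2 (11.1 and 15.6 RPKM) and the kinase genes Jak1 (42.2 and 44.4 RPKM) and Tyk2 (6.64 and 7.49 RPKM) were within the limit. Isg15, the modifier itself, ranked 3 of all entries by log2 ratio.

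The interferon genes were hardly measured. Of 19 ligand genes 15 were listed at 0 in both libraries and none reached 0.1 RPKM. Ifnb1, the type I interferon made first by infected fibroblasts, was listed at 0 in WT and at 0.0758 RPKM in KO, an estimated 1.68 read pairs, and the highest value of the list in WT was that of Ifnz (0.0437 RPKM). No difference in ligand RNA was detectable at this depth.

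Of 23 adaptors, kinases and factors downstream of the sensors 3 were above 1. Irf7, an IRF that interferon induces, had 5.24 RPKM in WT and 58.1 RPKM in KO (log2 ratio 3.24). Irf3, an IRF present before infection, had 21.5 and 21.6 RPKM (0.0047). The others above 1 were NF-kB genes. Nfkbia, the inhibitor that NF-kB induces, had 31.6 and 120.9 RPKM (1.90), and Nfkb1 had 14.2 and 32.8 RPKM (1.15). The kinase Ikbke, the closest relative of Tbk1, had 3.76 and 5.64 RPKM (0.48).

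Of 24 regulators of RIG-I-like receptors 3 were above 1. Tnfaip3, the ubiquitin-editing inhibitor A20, had 2.81 and 8.24 RPKM (1.28). Zc3hav1, the antiviral zinc finger protein ZAP, had 9.61 and 21.7 RPKM (1.10). Trim25, the ubiquitin ligase of RIG-I, had 13.49 and 29.72 RPKM (1.08). The lowest log2 ratio of that list was that of Ddx3x, a helicase that interacts with MAVS, with 67.0 RPKM in WT and 42.3 RPKM in KO (-0.65). Ddx3x is X-linked and its Y-linked homologue Ddx3y had 0.0174 and 4.18 RPKM. Eif2s3y and Kdm5d, also Y-linked, were listed at 0 in WT and at 6.30 and 1.96 RPKM in KO, so genotype and the sex of the embryos cannot be told apart in these libraries.

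Of 16 measured genes of cytosolic DNA sensing 4 were above 1. Trex1, the exonuclease that degrades cytosolic DNA, had 12.1 and 30.9 RPKM (1.28). Mnda (2.95 and 13.0 RPKM, 1.82), Ifi204 (3.00 and 8.42 RPKM, 1.24) and Ifi203 (0.454 and 2.12 RPKM, 1.10) belong to a cluster of closely similar genes on chromosome 1 that may share reads, so their separate values are uncertain. Aim2, the inflammasome sensor, had 0.0423 and 0.0266 RPKM. Of the 16 genes 7 were higher in KO and 9 were lower, all of the latter within the limit, with log2 ratios from -0.61 for Hmgb1 (3.36 and 1.86 RPKM) to -0.02 for Aim2.

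Of 17 genes of the endosomal toll-like receptor pathway 1 was above 1, the co-receptor Cd14, with 1.67 and 4.73 RPKM (1.10). The receptors Tlr7, Tlr8, Tlr9 and Tlr13 had at most 0.109 RPKM in either library, and of these and Tlr3 only Tlr3 reached 1 RPKM. The trafficking chaperone Unc93b1 had 12.1 and 16.5 RPKM (0.42).

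No gene was past the limit among 8 eIF2alpha kinases and phosphatase subunits, 13 genes of RNA editing and clearance, 7 necroptosis partners, 13 genes of STING trafficking or 19 interferon ligands. Eif2ak2 was thus the one eIF2alpha kinase gene past it, beside Eif2ak1 (15.1 and 15.6 RPKM), Eif2ak3 (6.47 and 7.58 RPKM) and Eif2ak4 (6.64 and 5.32 RPKM). In that list the log2 ratios ran from -0.46 for Eif2s1, the substrate, to 0.48 for the phosphatase subunit gene Ppp1r15a. Adarb1, which encodes the editing enzyme ADAR2, had 2.58 and 5.65 RPKM (0.90). Without pseudocount its ratio was 2.19 (1.98 to 2.44), beside 2.17 for Adar, and only the pseudocount of 1 placed it within the limit. Adarb2 and Adad1 of the same family were listed at 0 in both libraries, and Dis3, an exosome nuclease, was lowest of its list (7.16 and 5.42 RPKM, -0.34). Birc3, an inhibitor of apoptosis (3.31 and 5.84 RPKM, 0.67), and Casp8 (-0.32) were the ends of the necroptosis list, and Rhbdf2 (5.12 and 10.1 RPKM, 0.86) and Tmem203 (7.62 and 6.14 RPKM, -0.27) those of STING trafficking.

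The fibroblast label was met by its markers: all 10 fibroblast genes were above 4 RPKM in both libraries, with Col1a1 at 1477 RPKM in WT and 1874 RPKM in KO. The 10 macrophage and myeloid genes were all higher in KO, with a sum of 22.5 RPKM in WT and 55.2 RPKM in KO, and 3 of them (Lyz2, Cd68 and Cd14) were above a log2 ratio of 1. Among them Ptprc, the pan-leukocyte gene, had 0.0449 RPKM in WT and 0.0813 RPKM in KO, and Aif1 was also under 0.1 RPKM in both. The counting ranges of the ratio included 1 for Ptprc (0.659 to 5.45), Aif1 (0.110 to 125) and Tyrobp (0.966 to 2.44). Lyz2 had 13.9 and 34.7 RPKM. Macrophages express several of these sensors. The part of such cells in the ratios of Zbp1, Tlr3, Cd14 and the Ifi200 genes was not tested, and in these bulk libraries more cells of a type and more RNA per cell cannot be told apart. The 8 plasmacytoid dendritic and lymphoid markers summed to 1.02 RPKM in WT and 0.968 RPKM in KO, with 6 of them at 0 in both. Endothelial markers summed to 1.14 and 0.558 RPKM, and epithelial markers to 1.12 and 0.684 RPKM.

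Some entries overlap genes on the other strand, and no strand-specific preparation is described for the fibroblast libraries, so their reads could not be separated. Adar shares 1365 exonic bases with Chrnb2, which was listed at 0.0912 RPKM in WT and 0.0938 RPKM in KO. Dhx58 shares 141 exonic bases with the antisense gene Dhx58os, Tlr3 shares 160 with Gm45542, and Eif2ak2 shares 173 with the lincRNA gene Gm26637 and 47 with an annotated ribosomal RNA gene. Ddx58, Ifih1, Mavs, Tmem173, Zbp1 and Tbk1 overlap no other annotated exon.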

How the data were processed

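Poly-A RNA of WT and NEAT1 KO fibroblasts was sequenced from 1 library each. The authors deposited RPKM values for 23329 RefSeq-based entries, and the submitters' processing notes name CASAVA 1.8 and the build mm10. The aligner, the counting and the length model are not given in the sources used here. Entry starts lay 1 base below the RefSeq GRCm38 start for 55.9% of 20641 matched symbols, so starts are printed with 1 added. No scaling between the libraries was applied. Over 10888 entries with at least 1 RPKM in both, the median log2 ratio was -0.059. The log2 ratio used a pseudocount of 1, which understates the change of low entries, and every entry was kept.

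Depth is not stated. RPKM multiplied by length in kb (exon union of the RefSeq transcripts in GENCODE M21) recurred at 0.0318 in WT and 0.0337 in KO over entries with 1 transcript: of 788 and 787 values between 0.02 and 0.06, 402 and 434 lay within 2% of it. Taken as 1 read pair, this gives an estimated 31400000 and 29600000 pairs, and the estimated read pairs and exact (Clopper-Pearson) 95% ranges of ratios rest on it. The entries of Ifih1, Mavs, Zbp1 and Adar merge several RefSeq transcripts. Their read pairs and ranges rest in addition on the exon-union length, which was not checked for such entries. Those ranges address counting error only and treat each read pair as independent. Reads without molecular identifiers are not independent molecules, so the ranges may be too narrow even for counting error.

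The members and lists were chosen with earlier results of these data known. Named genes were all members, up to 4 genes past the limit per list and direction, or else the ends of a list, the nearest entry of each member, Neat1, Irf7 and Isg15. The values of 1 gene that the rule names are not reported here. Ifnb1, Ifnz, Irf3, Ikbke, Ifnar1, Ifnar2, Jak1, Tyk2, Ripk3, Mlkl, Aim2, Hmgb1, Unc93b1, Tlr7, Tlr8, Tlr9, Tlr13, the other eIF2alpha kinases, Adarb2, Adad1, Socs3, Ddx3x and the Y-linked genes were added for their role after their values were seen. Human libraries were not used here. Scripts were tested on simulated data (Python 3.11.15, numpy 2.4.6, pandas 2.3.3, scipy 1.17.1, matplotlib 3.10.9).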

Additional observations from a re-analysis of the deposited data

How the results depend on the processing

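With 1 library per group no replicate could be left out and no other test could be tried. No paired analysis was possible because each group holds 1 library. Tried in turn were 0.1 as the pseudocount, only entries that reach 1 RPKM in either library, centring on the median of expressed entries, quantile normalization, and every entry of a symbol, which changed nothing since each symbol stands on 1 entry. Under all 5 the 6 genes above 1, the 2 above 2 and the 0 below -1 kept their number, and the median of the 10 log2 ratios was between 1.08 and 1.16. The filter and the symbol setting leave every log2 ratio as it was, so their values were the same by construction. Centring shifts all genes by the same constant. The count that follows includes these settings. Of 50 values of single genes 48 moved by less than 1.5 times and 2 moved further, both upward with the pseudocount of 0.1: Dhx58 to 3.76 and Zbp1 to 4.33, since that constant weighs less on their low WT values. With the same pseudocount 500 of all entries lay above 1 in place of 228 (2.14% in place of 0.977%). Above 2 lay 118 in place of 52, and below -1 540 in place of 78. Of the pathway genes 20 lay above 1 in place of 16, with Ifi205, Mndal, Ddx60 and Adarb1 added. Adarb1 belongs to a list with no gene past the limit at a pseudocount of 1. Below -1 lay 1 pathway gene, Rnf125 (1.14 RPKM in WT, 0.404 RPKM in KO), in place of 0. Depth limits mainly Zbp1 and Dhx58 in WT, with an estimated 22.5 and 53.9 read pairs.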

Other observations

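Among the marker genes that were used to check the label, some fibroblast genes also differed between the libraries. Lum, the keratan sulfate proteoglycan lumican, had 7.98 RPKM in WT and 33.0 RPKM in KO, Dcn, the proteoglycan decorin, had 19.8 and 64.0 RPKM, and Pdgfra, a growth factor receptor of mesenchymal cells, had 4.18 and 13.8 RPKM. These 3 of the 10 fibroblast genes had a log2 ratio above 1 and none was below -1, while Vim was lower in KO (3151 and 2448 RPKM, -0.36). Of 5 skeletal muscle genes Acta1, the skeletal actin, was below -1, with 12.6 RPKM in WT and 4.26 RPKM in KO. With 1 library per condition these values have no replicate check.

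Promoters that hold the motif GAAANNGAAA were also counted over the entries of the files. Of 15715 genes with both an entry and a promoter 609 held it (3.88%), and of the 165 such genes with a log2 ratio above 1 36 held it (21.8%). The shorter pair GAAANNGAA was held by 9.21% of the 15715 genes and by 26.7% of the 165, and the GAS element by 9.19% and by 12.7%. The members are included in all of these counts. A log2 ratio above 1 requires more than 1 RPKM in KO, whereas the 15715 genes include some under 1 RPKM in both libraries. The shares among expressed genes alone were not counted, so the sets differ in expression as well as in ratio. No test was made of these differences, and a match is a description of letters.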
